A study of Mus musculus with 2 samples.

Results

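Genes of glucose sensing and maturity of the pancreatic beta cell were examined in islets of PERK knockout and wild-type mice. The set was defined by 8 gene symbols, Slc2a2, G6pc2, Abcc8, Kcnj11, Trpm5, Sytl4, Prlr and Slc30a8, and every probe set whose platform annotation gives one of them was taken. That gave 8 probe sets of 6 genes, out of 22690 probe sets and 12393 genes on the array. No probe set is listed under Prlr, the prolactin receptor, or under Slc30a8, the zinc transporter of insulin granules, so both are absent here. Of the 6 genes, 5 were measured, meaning that their brightest probe set exceeded a floor of 39.8 signal units on both arrays. Kcnj11 was under the floor on both.

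The study compared islets of PERK knockout mice with islets of wild-type mice, 2 days after birth, on 1 Affymetrix mouse 430A array for each genotype. The product of Eif2ak3, PERK, sits in the membrane of the endoplasmic reticulum and slows translation when unfolded protein accumulates. Islets were freed by digestion with collagenase P. Wild-type mice were of mixed strains and mixed sex, per their label. The sources used here do not give strain and sex of the knockout mice, the deleted part of the gene, whether the deletion is limited to some cells, or whether pups were pooled. With 1 array for each genotype there is no spread between animals, no test was possible, and each ratio compares these 2 RNA preparations.

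Beta cells take up glucose through the transporter GLUT2 (Slc2a2) and phosphorylate it, so that the ATP made from it reflects blood glucose. ATP closes a potassium channel built of Kir6.2 (Kcnj11) and SUR1 (Abcc8), the membrane depolarises, calcium enters and insulin granules fuse with the plasma membrane. Neonatal rodent beta cells respond weakly to glucose and gain this response as they mature after birth.

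Of the 5 measured genes, all had a lower signal in the knockout library, 4 by at least 1.5-fold and 2 by at least 2-fold. Sytl4 was 2.49-fold lower, Trpm5 2.21-fold, Slc2a2 1.85-fold, G6pc2 1.66-fold and Abcc8 1.19-fold. Among all 8133 measured genes of the array, 45.1% had a lower signal in the knockout library, 2.95% were lower by at least 1.5-fold and 0.652% by at least 2-fold. Taken as log2 of knockout over wild type, the ratio had a median of -0.89 over the 5 genes (1.85-fold lower) and 0.03 over all measured genes. These genes were listed with results of the same arrays known, so the counts describe them and carry no test.

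**Figure D1:**
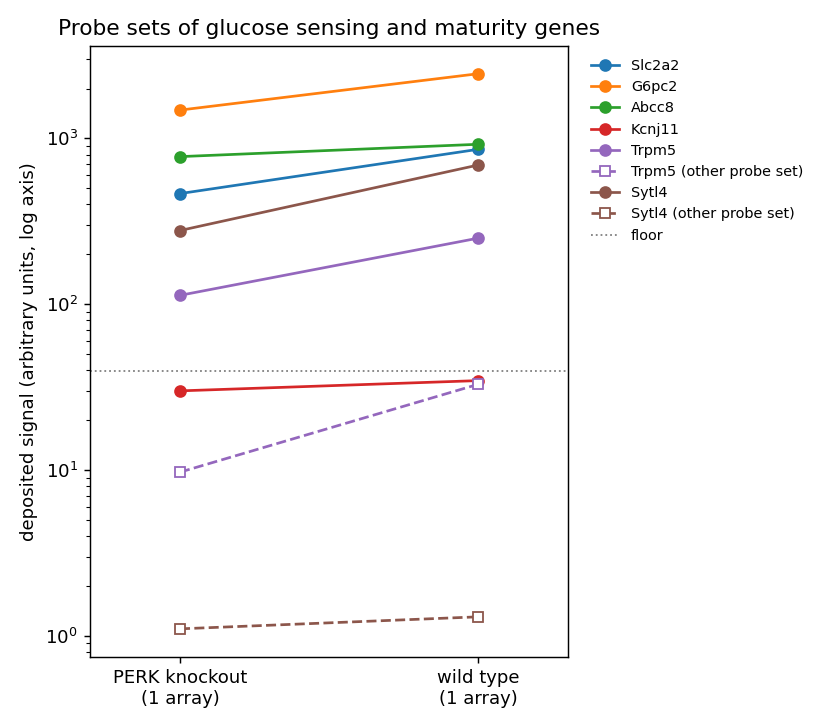
Deposited signal (arbitrary units, log axis) of the 8 probe sets on the PERK knockout array and the wild-type array, with filled circles for the brightest probe set of a gene, open squares for a further one, and a dotted line at the floor of 39.8. The 5 lines above the floor all have their knockout point below their wild-type point, and Abcc8 has the flattest of them.

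Uptake of glucose and its entry into metabolism are represented by a gene each. Slc2a2, which encodes GLUT2, the main glucose transporter of rodent beta cells, had a signal of 464.9 in the knockout library and 860.4 in the wild-type library. G6pc2, a glucose-6-phosphatase catalytic subunit found almost only in islets, which opposes the phosphorylation of glucose, had 1483 in the knockout library and 2459 in the wild-type library. The transporter and the phosphatase, which act in opposite directions on glucose 6-phosphate, were thus both lower in the knockout library. Their log2 ratios were -0.89 for Slc2a2 and -0.73 for G6pc2. Counting Slc2a2 itself, 73 of the 8133 measured genes had a ratio as low or lower, and for G6pc2 the number was 122. Ratios scattered less among bright genes: of the 1187 measured genes with a mean signal above 522.4, 2.19% were at least 1.5-fold lower, against 2 of the 3 glucose sensing genes in that range. Within that range, 10 genes were as low as Slc2a2 or lower and 12 as low as G6pc2 or lower.

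The potassium channel was measured through one of its subunits. Abcc8, the sulphonylurea receptor SUR1, had a signal of 776.9 in the knockout library and 922.4 in the wild-type library, a log2 ratio of -0.25. Of all measured genes, 15.7% were as low or lower. Kcnj11, the pore subunit Kir6.2, had 30.0 in the knockout library and 34.6 in the wild-type library. Both signals lie under the floor, so no fold is given and its level could not be compared. With the floor lowered to the 25th percentile of signals (19.3), Kcnj11 had a log2 ratio of -0.21.

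Trpm5 and Sytl4 act after the potassium channel. Trpm5, a cation channel opened by intracellular calcium that shapes glucose-induced electrical activity in mouse islets, had 113.1 in the knockout library and 250.5 in the wild-type library, a log2 ratio of -1.15. Its other probe set gave 9.7 in the knockout library and 32.9 in the wild-type library, both under the floor. Sytl4 encodes granuphilin, a Rab27 effector that docks insulin granules at the plasma membrane. Its signal was 278.3 in the knockout library and 691.9 in the wild-type library, a log2 ratio of -1.31, with 1.1 and 1.3 on its other probe set, under the floor in both. Only 20 of the 8133 measured genes were as low as Sytl4 or lower, and 35 as low as Trpm5 or lower. Sytl4 lies on chromosome X, where the 243 measured genes had a median log2 ratio of 0.01 and Sytl4 was the 1 gene at least 2-fold lower. Xist, the transcript of the inactive X of females, had 832.6 in the knockout library and 628.1 in the wild-type library, and its part in the Sytl4 ratio was not tested.

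None of the 5 genes had a second measured probe set, so no ratio could be checked within its own gene. The error available is the disagreement between probe sets of the same gene elsewhere on the array: over 2597 genes with at least 2 measured probe sets, the SD per probe set was 0.26 on the log2 scale, and 0.20 to 0.29 within 4 classes of brightness. In units of the SD for its own class, the ratio was 5.47 for Sytl4, 4.43 for Slc2a2, 4.08 for Trpm5, 3.64 for G6pc2 and 1.23 for Abcc8. The genes other than Abcc8 thus differed by several times the probe set error, while Abcc8 differed by about as much as probe sets of one gene do. That error holds only noise that differs between probe sets of a gene. Technical effects that shift these probe sets alike cancel in it, and so do differences between animals, litters or islet preparations. Over all measured genes the log2 ratio itself had a wider SD, 0.33. Abcc8 also stood apart from the others in size: the log2 ratio of Sytl4 was lower than that of Abcc8 by 1.07, and the ratio of Trpm5 differed from it by -0.90, of Slc2a2 by -0.64 and of G6pc2 by -0.48.

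**Figure D2:**
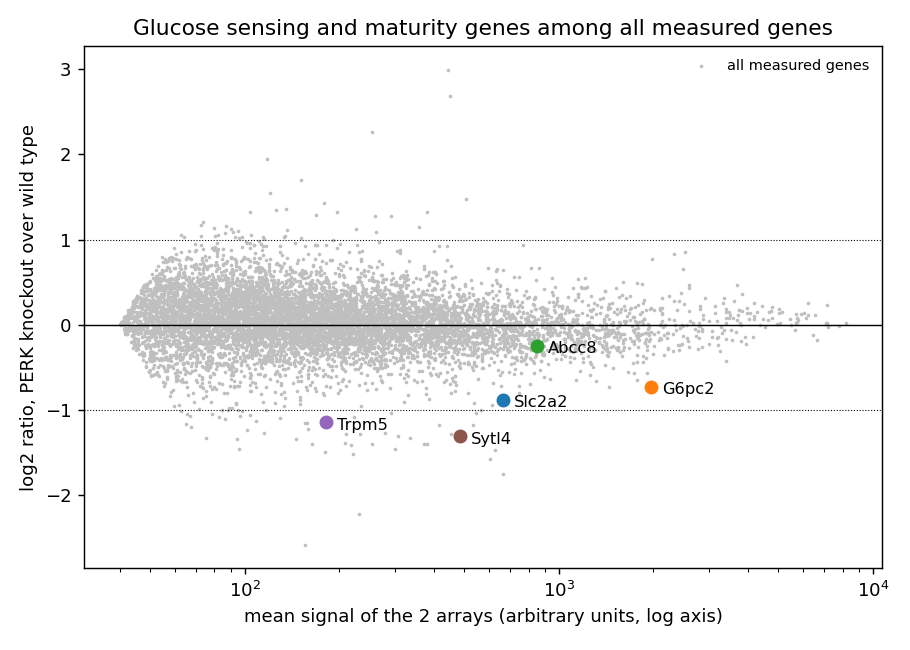
Log2 ratio of PERK knockout over wild type against the mean signal of the 2 arrays (log axis), with each measured gene as a grey point, the 5 glucose sensing and maturity genes in colour, and dotted lines at 2-fold. Sytl4, Trpm5, Slc2a2 and G6pc2 lie at the lower edge of the cloud at their brightness, and Abcc8, at -0.25, lies inside it.

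The promoters of the 4 genes with the lowest ratios are shown because these genes were lower together. Each sequence is the 250 bases before the annotated start in GRCm38.p6, from RefSeq, 5′ to 3′ on the gene's strand. The table holds promoters for 5 of the 8 genes. For G6pc2 it holds 2 starts, and the upstream one is shown. Capitals mark matches to the motifs named after the sequences.

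Sytl4, chrX:133981813-133982062, minus strand: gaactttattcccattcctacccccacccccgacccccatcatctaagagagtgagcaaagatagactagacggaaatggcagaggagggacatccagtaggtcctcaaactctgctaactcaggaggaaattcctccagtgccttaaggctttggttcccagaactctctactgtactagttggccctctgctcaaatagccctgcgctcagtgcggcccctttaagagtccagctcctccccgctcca
Trpm5, chr7:143094643-143094892, minus strand: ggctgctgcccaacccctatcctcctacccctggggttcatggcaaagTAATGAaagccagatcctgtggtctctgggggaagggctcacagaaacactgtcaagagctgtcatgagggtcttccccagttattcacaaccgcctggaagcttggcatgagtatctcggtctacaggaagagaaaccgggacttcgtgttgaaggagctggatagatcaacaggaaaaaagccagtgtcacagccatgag
Slc2a2, chr3:28697653-28697902, plus strand: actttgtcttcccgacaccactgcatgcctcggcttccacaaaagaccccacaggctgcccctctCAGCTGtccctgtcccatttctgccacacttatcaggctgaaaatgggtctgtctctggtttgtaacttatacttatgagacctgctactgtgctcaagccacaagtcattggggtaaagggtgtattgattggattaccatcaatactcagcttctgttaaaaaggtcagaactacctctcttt
G6pc2, chr2:69210823-69211072, plus strand: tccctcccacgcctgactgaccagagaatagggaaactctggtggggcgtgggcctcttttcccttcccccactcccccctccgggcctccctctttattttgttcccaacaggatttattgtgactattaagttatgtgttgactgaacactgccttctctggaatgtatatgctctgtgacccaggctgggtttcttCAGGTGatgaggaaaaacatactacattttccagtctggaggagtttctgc

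The motifs were searched on both strands. The E-box CANNTG, bound by basic helix-loop-helix factors such as NEUROD1, occurred once in Slc2a2 at position -185 and once in G6pc2 at -51, and it is present in 66.2% of the 32851 promoters of the table. Its forms CATCTG and CAGATG, which are each other's reverse complement and lie within the E-box, are in 14.4% and were in none of the 4 sequences. The homeodomain core TAATGA, present in 8.59% of promoters, occurred in Trpm5 at -202. The homeodomain core TAATTA (4.84% of promoters), the forkhead core TGTTTAC (3.17%), the Maf core TGCTGA (16.1%), the GC box core GGGCGG (32.7%), the CRE core TGACG (17.8%) and TATAAA (12.4%) had no match in the 4 sequences. The other annotated start of G6pc2, not printed, differed from the printed one: its window held 4 E-boxes, 2 of them in the CATCTG or CAGATG form, and 2 matches to the Maf core TGCTGA. No motif of those searched was thus shared by the 4 printed windows, and Sytl4 held none of them. These are matches of letters in short windows and describe no binding.

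The wider machinery of glucose sensing and stimulus coupling was not lower as a group. Of a list of 48 such genes, 35 had a probe set and 23 were measured, with 10 below equality (a log2 ratio under 0), 13 above, and a median log2 ratio of 0.08 (0.10 with 3 further genes at their bounds). Of the 23, 2 were at least 1.5-fold lower and none at least 2-fold, against 2.95% and 0.652% of all measured genes. Atp2a3, the SERCA3 pump that returns calcium to the endoplasmic reticulum, had 418.4 in the knockout library and 802.4 in the wild-type library (log2 -0.94), but its other probe set gave 0.10. Mdh1, the cytosolic malate dehydrogenase, had a log2 ratio of -0.73, against -0.35 to 0.08 on its 3 other probe sets. Atp2a2, the SERCA2 pump, had 1540 in the knockout library and 2287 in the wild-type library (log2 -0.57), with -0.33 to -0.65 on its other probe sets, so all 4 of them were below equality.

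At the other end of that list, Slc2a3, a glucose transporter of neurons and white blood cells, had 140.7 in the knockout library and 73.7 in the wild-type library, a log2 ratio of 0.93, with 0.41 on another probe set. It was the 1 gene of the list at least 1.5-fold higher, where 4.19% of all measured genes are. The adenylyl cyclase Adcy6 had a log2 ratio of 0.53 and the insulin-regulated transporter Slc2a4 one of 0.46, at signals close to the floor. The relatives of the potassium channel subunits, Kcnj8 and Abcc9, had log2 ratios of 0.12 and 0.09, that of Abcc9 at signals close to the floor. Of the relatives of G6pc2, G6pc3 had a log2 ratio of 0.22 and G6pc, the liver enzyme, was under the floor on both arrays. The glucose transporter Slc2a1, which serves human beta cells, had 101.4 in the knockout library and 94.1 in the wild-type library (log2 0.11).

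Genes of granule docking and fusion lay around equality as well. Of a list of 35, 25 were measured, with 10 below equality, 15 above and a median log2 ratio of 0.07 (also 0.07 with 3 further genes at their bounds). Of all measured genes, 45.1% were below equality. Of the 25, 2 were at least 1.5-fold lower and 1 at least 1.5-fold higher, against 2.95% and 4.19% of all measured genes. None was 2-fold apart. Among genes measured on both arrays, the lowest were Syt13 (-0.73), an atypical synaptotagmin, the granule SNARE Vamp2 (-0.68), at 125.6 in the knockout library and 200.6 in the wild-type library, and Syt5 (-0.49). The highest of these were Syt9 (0.67), a calcium sensor of exocytosis, the priming factor Unc13a (0.34) and the Rab27 effector Mlph (0.30). Signals of Syt5, Unc13a and Mlph were close to the floor. Of the family of Sytl4, Sytl2 had a log2 ratio of 0.24. Sytl1, named after its values were seen, had 6.9 in the knockout library, under the floor, and 100.8 in the wild-type library, at least 2.53-fold lower. Rab27b, whose family granuphilin binds, had a log2 ratio of -0.25, and Rab27a was under the floor on both arrays. The 5 measured relatives of Slc30a8 lay between -0.19 and 0.16. A further relative, the zinc exporter Slc30a1, also named after its values were seen, had 78.7 in the knockout library and 36.6 in the wild-type library, under the floor, at least 1.98-fold higher.

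**Figure D3:**
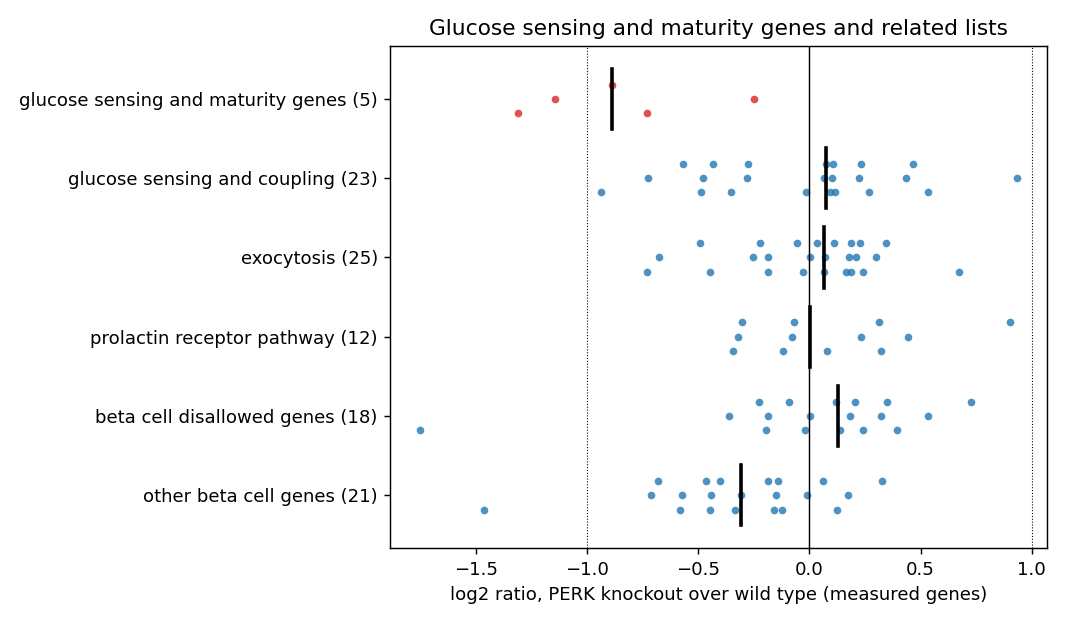
Log2 ratio of PERK knockout over wild type for the measured genes of each list (number in brackets), 1 point for each gene, a black bar at the median, and dotted lines at 2-fold; vertical offsets only separate points. The median is -0.89 for the glucose sensing and maturity genes, -0.31 for other beta cell genes and between 0.00 and 0.13 for the remaining lists.

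Beside Prlr, which is absent here, the pathway of the prolactin receptor was represented by 12 measured genes, 6 below and 6 above equality, with a median log2 ratio of 0.00 (-0.05 with 1 further gene at its bound). Jak2, the kinase bound to the receptor, had 135.2 in the knockout library and 72.4 in the wild-type library (log2 0.90), and 0.74 on its other measured probe set. The insulin receptor gene Insr had a log2 ratio of 0.44 and Stat5a, a transcription factor activated by Jak2, one of 0.32, both at signals close to the floor. Ghr, the growth hormone receptor, a relative of Prlr, had 900.2 in the knockout library and 1143 in the wild-type library (log2 -0.34), and the menin gene Men1 (-0.32) and the signalling inhibitor Socs3 (-0.30, with -0.34 and 0.08 on its other measured probe sets) were close to it.

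Genes that are low in mature beta cells, or fall as these cells mature (named disallowed in the plot of lists), had a median log2 ratio of 0.13. It was taken over 18 measured genes, with 7 below and 11 above equality. The signals are of whole islets, and Pdgfra and Pdgfrb on this list are also markers of mesenchyme, so the median does not measure beta cells alone. The lowest was Npy, a neuropeptide of immature beta cells, at 304.8 in the knockout library and 1027 in the wild-type library, 3.37-fold lower, the 1 gene of this list at least 2-fold apart. Igfbp4, an IGF binding protein, had -0.36, against -0.16 to 0.13 on its 5 other measured probe sets, and Lmo4, a transcriptional cofactor, -0.23. The highest were catalase, Cat (0.73, and 0.38 on its other measured probe set), the mesenchymal receptor Pdgfra (0.54) and the Notch family ligand Dlk1 (0.39), at 1596 in the knockout library and 1216 in the wild-type library. Ldha, lactate dehydrogenase A, had a log2 ratio of -0.02 and Slc16a1, a lactate and pyruvate transporter, was under the floor on both arrays.

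Other genes of the beta cell were lower too, by less at the median, though Pcsk1 was lower than any measured gene of the glucose sensing set. Of 30 listed, 21 were measured, while Mafa, Ucn3 and Ins1 were among those with no probe set. Of the 21, 17 were below equality, where 45.1% of all measured genes are. The 21 log2 ratios had a median of -0.31 (1.24-fold lower). At least 1.5-fold lower were 3 of them and at least 2-fold 1, against 2.95% and 0.652% of all measured genes. The lowest were Pcsk1, a convertase of proinsulin, at 332.6 in the knockout library and 919.8 in the wild-type library (2.77-fold lower), Nnat (-0.71), neuronatin, and Gjd2 (-0.68), the gap junction protein that couples beta cells. The highest were Isl1 (0.33), a transcription factor of all islet endocrine cells, Cpe (0.17), carboxypeptidase E, and Ins2 (0.12), one of the insulin genes. Set against the median of this list in place of the array, the log2 ratio was -1.005 for Sytl4, -0.84 for Trpm5, -0.58 for Slc2a2, -0.42 for G6pc2 and 0.06 for Abcc8, which then changed sign.

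In whole islets, fewer beta cells and less RNA for each beta cell cannot be told apart. Markers of the labelled tissue were present: all 6 beta cell markers with a probe set were measured. Of these, 5 were below equality, where 45.1% of all measured genes are. Slc2a2 and G6pc2 are among the 5, so this count in part restates their own ratios. The 3 measured delta cell markers and all 3 of PP and epsilon cells were above equality, as were 5 of 6 alpha cell markers (median log2 ratio 0.18). The median of all measured genes, 0.03, was above equality too. Markers of other cells went both ways: 2 above and 4 below for endothelium, 2 and 3 for duct, 4 and 3 for mesenchyme, and 5 and 2 for acinar cells. Summed signals of 10 immune markers were 2997 in the knockout library and 970.9 in the wild-type library, with all 8 measured ones above equality. Those of 7 acinar markers were 31763 in the knockout library and 31265 in the wild-type library. Eif2ak3 had 58.7 in the knockout library and 117.7 in the wild-type library on the 1 of its 3 probe sets above the floor, and as the deleted part is not given, this probe set may check nothing. The signal ratio of the 3′ to the 5′ end, a sign of RNA length, was 2.01 in the knockout library and 1.61 in the wild-type library for beta-actin, and 0.867 in the knockout library and 1.01 in the wild-type library for Gapdh. The part of cell makeup and RNA quality in the lower signals was not tested. Across the array, 0.516% of measured genes had at least 2-fold more signal in the knockout library. As every measured gene of the glucose sensing set was lower, none was among them, and this adds no result.

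**Figure D4:**
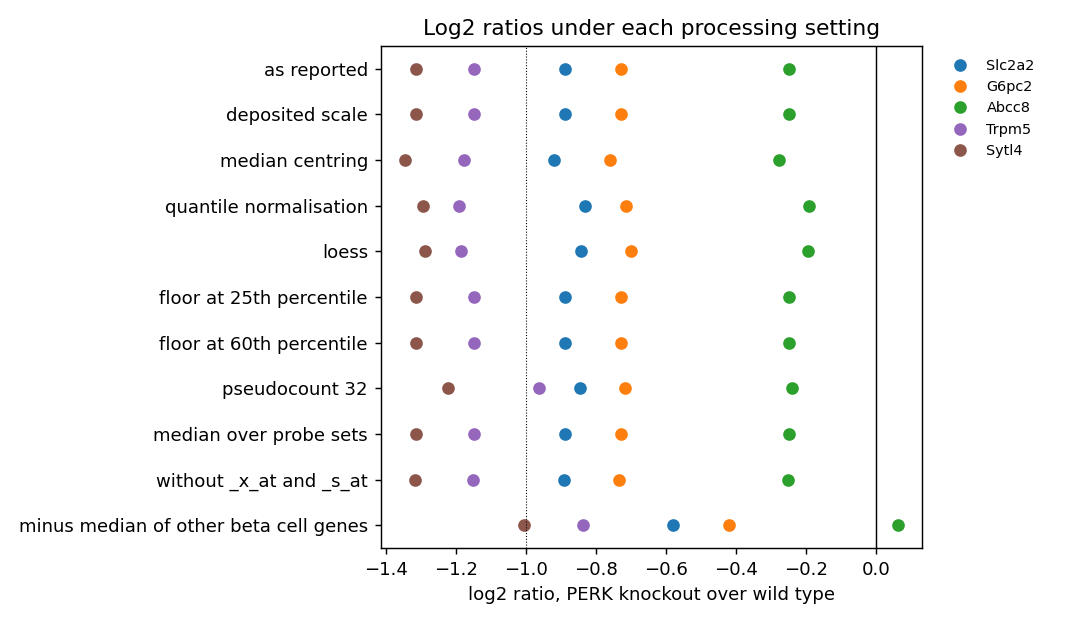
Log2 ratio of PERK knockout over wild type of the 5 measured genes (horizontal axis) under each processing setting (rows), with a dotted line at 2-fold. The order of Sytl4, Trpm5, Slc2a2, G6pc2 and Abcc8 is the same in every row, and Abcc8 crosses 0 only when the median of other beta cell genes is subtracted.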

How the data were processed

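The authors deposited a linear signal intensity for each probe set of the 2 arrays (1 for each genotype), and GCOS 1.02 is the tool given in the submitters' processing notes. The sources used here do not give how background was corrected, probes were summarised or detection was called. Means trimmed by 2% at either end were 149.7 on both arrays, so they had been brought to a common scale before deposit, and the factor applied here to equalise them was 1.00. A floor was put at the 40th percentile of all signals of the 2 arrays (39.8), lower signals were raised to it, and ratios were expressed as log2 of knockout over wild type. A gene under the floor on 1 array has a bound ("at least"). The probe set with the highest mean signal stood for its gene. Of 22690 probe sets, 20380 carried 1 gene symbol in the platform annotation, of which 20359 occur in RefSeq's table for GRCm38.p6. The annotation's build is not given, so probe sets have no coordinates here.

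With 1 array for each genotype there was no test, and the number of arrays limits the precision. The genes, the lists and the rule for named genes (all 8 genes with every probe set, Eif2ak3, and the 3 lowest and 3 highest measured genes of each list) were chosen with earlier results of these data known. Relatives of the 8 genes are named as such. Some genes are on more than 1 list. The calculation was tested on simulated data. Alternatives were the scaling, the floor, a pseudocount of 32, the choice of probe set and a beta cell reference. Protein comparisons planned for relatives were not analysed here. Python 3.11.15, numpy 2.4.6, pandas 2.3.3 and statsmodels 0.14.6 were used.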

Additional observations from a re-analysis of the deposited data

How the results depend on the processing

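Under 10 alternatives (9 for the list of other beta cell genes), the log2 ratios ranged from -1.34 to -1.005 for Sytl4, -1.19 to -0.84 for Trpm5, -0.92 to -0.58 for Slc2a2, -0.76 to -0.42 for G6pc2 and -0.28 to 0.062 for Abcc8. Subtracting the median of other beta cell genes, which raises every ratio by the same amount, gave the upper end of each range: -1.005 for Sytl4, -0.84 for Trpm5, -0.58 for Slc2a2 and for the median of the 5 genes, -0.42 for G6pc2 and 0.062 for Abcc8, the 1 value that changed sign. With that subtraction 1 gene was at least 2-fold lower and 2 at least 1.5-fold, and the list medians were 0.39 for glucose sensing and coupling, 0.38 for exocytosis and 0.44 for genes low in mature beta cells. A pseudocount of 32 in place of the floor left 1 gene at least 2-fold lower and gave -0.21 for other beta cell genes, and the floor at the 25th percentile gave -0.25 for these. The median of the coupling list was 0.0125 with quantile normalisation and 0.0126 with loess, and that of the exocytosis list 0.0112 with loess. The list medians given here for the pseudocount, the lower floor, quantile normalisation and loess moved by less than the probe set spread of 0.26. All other values stayed within that spread too, and counts within 1.5 times. No paired analysis was possible because there is 1 array for each genotype. Signals under the floor, Kcnj11 among them, have no order.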

Other observations

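The genes next to the glucose sensing and maturity genes on the chromosome were looked at after the other values had been seen. The nearest protein-coding gene on either side of each of the 8 genes was taken from the RefSeq table of GRCm38.p6, and 10 different neighbours were measured on both arrays. Spc25, a kinetochore subunit and the neighbour of G6pc2, had 303.2 in the knockout library and 906.2 in the wild-type library on its brightest probe set, a log2 ratio of -1.58 (2.99-fold lower), while the gene models of the pair do not overlap in that table. Kcnj11 and Abcc8 are neighbours of each other. Both neighbours of Trpm5 were below equality, with log2 ratios of -0.49 for the potassium channel gene Kcnq1 and -0.33 for Tssc4. Those of Sytl4 had -0.25 (Srpx2, at signals close to the floor) and -0.19 (Cstf2). Those of Slc30a8, which itself has no probe set here, had -0.39 (Aard) and 0.04 (Med30), Ush1c beside Abcc8 had 0.14, and Nomo1 beside Kcnj11 had -0.09. Of the 10 measured neighbours, Abcc8 among them, Spc25 alone was at least 1.5-fold apart. Of all measured genes, 2.95% were at least 1.5-fold lower and 4.19% at least 1.5-fold higher. Abcb11, on the other side of G6pc2, was under the floor on both arrays.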
